A study of Mus musculus with 11 samples.

Results

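Sirtuins are enzymes that remove acyl groups from proteins and consume NAD as they do so, and the salvage enzymes rebuild NAD from the nicotinamide that this reaction releases. The 10 genes described here are the 7 mouse sirtuins, Sirt1 to Sirt7, and 3 salvage enzymes, Nampt, Nmnat1 and Nmnat2. They were taken by symbol from tables of 48709 Ensembl gene IDs, by a rule that used no measured values. Earlier results of these data were known when the genes were chosen. All 10 were among the 16235 genes that passed the filter on low counts. RNA was sequenced from primary mouse hippocampal neurons grown for 10 days at 20% oxygen. The hypoxia group was then moved to 1% oxygen for 4 h (5 libraries), and the control group stayed at 20% oxygen (6 libraries). Per the labels, control cells shared the isolation of the hypoxic ones. No genotype, strain, sex or age of the animals is given in the labels, and none says how many isolations there were or whether libraries of a group came from separate dishes, so the p-values measure the spread between these libraries, which may be technical.

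Nampt makes nicotinamide mononucleotide from nicotinamide and limits the rate of the salvage route. The Nmnat enzymes turn that product into NAD, with Nmnat1 in the nucleus and Nmnat2 in the cytosol and on vesicles of neurons, where it is a short-lived protein that keeps axons alive. Sirt1, Sirt6 and Sirt7 act mainly in the nucleus, Sirt2 mainly in the cytosol, and Sirt3, Sirt4 and Sirt5 in mitochondria. Nampt is also a known target of the circadian clock, whose repressors are in turn substrates of Sirt1.

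After 4 h of hypoxia, transcripts of 2 salvage enzymes rose and transcripts of 2 sirtuins fell. Nampt rose 1.31-fold and Nmnat2 1.08-fold, whereas Sirt1 and Sirt7 fell, with log2 fold changes of -0.35 and -0.18. Of the 10 genes, 2 were higher and 2 lower at an adjusted p under 0.05 in edgeR's quasi-likelihood test, where 10.1% of all genes tested were higher, 12.8% were lower and 22.9% were called in either direction. The balance over all genes turned with the method: 1644 were higher and 2078 lower as reported, 1872 and 1877 with DESeq2 size factors, and 2044 and 1812 in the DESeq2 Wald test. In the same fit without control 1 it also turned, with 2081 higher and 2018 lower. The other 6 genes did not pass the threshold. Under 15 alternatives the calls of Nampt and Sirt1 were always kept, and those of Nmnat2 and Sirt7 were lost under some. The median log2 fold change was -0.07 over the 10 genes and -0.02 over all genes tested. The libraries are bulk samples, so fewer cells of a type and less RNA per cell cannot be told apart.

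**Figure D1:**
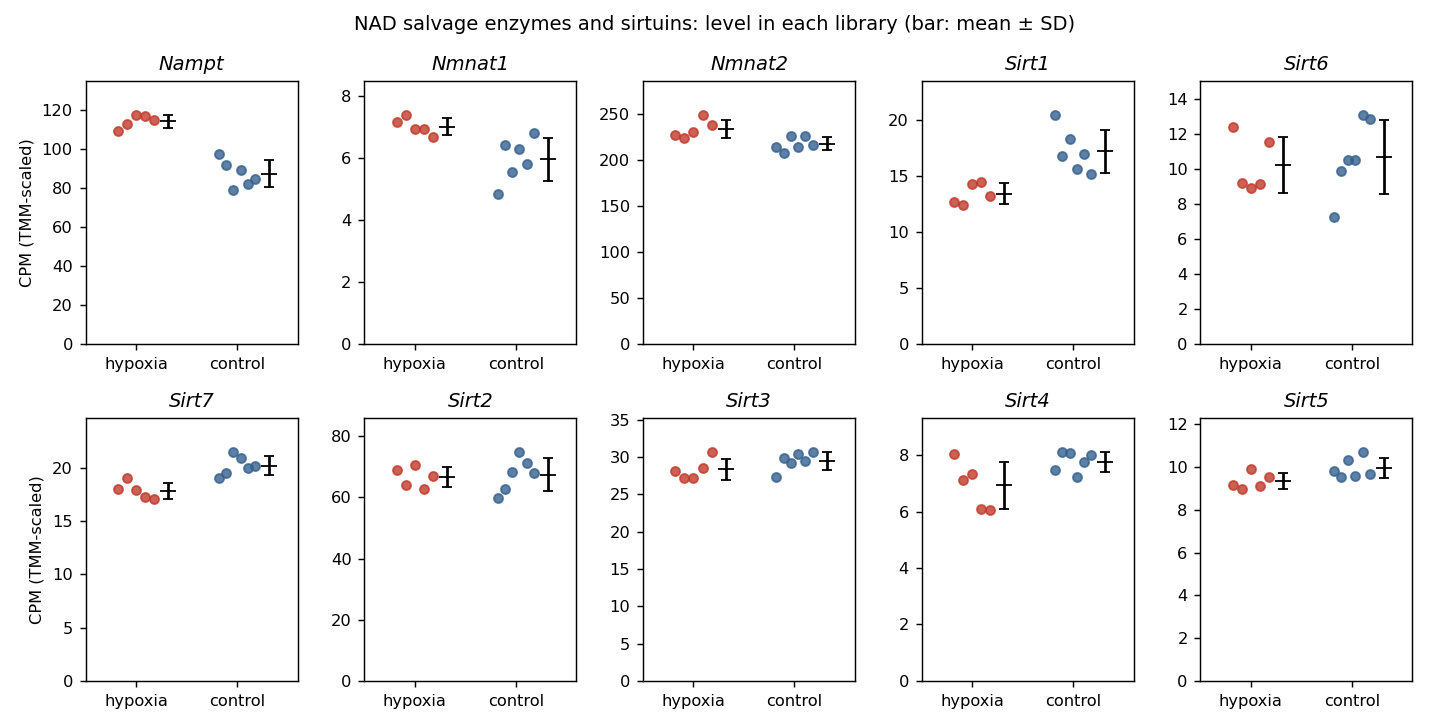
Level of each transcript in each library, in CPM (counts for each 1e+06 counts of a TMM-scaled library), from 0; each point is a library, hypoxia (red) left of control (blue), and the black bar is the mean ± SD of 5 hypoxia or 6 control libraries. All hypoxia libraries lie above all controls for Nampt and below them for Sirt1, and the other 8 transcripts overlap between the groups.

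Total counts per library, in units of 1e+06 counts, ran from 16.6 to 31.9, with a mean of 26.3 ± 3.44 in hypoxia and 27.1 ± 5.41 in control (SD, n = 5 and 6, two-sided exact permutation p = 0.801). The shallowest library was control 1. The 10 transcripts had from 81 to 7567 counts per library. Levels are given as CPM, the counts of a gene for each 1e+06 counts of its library after TMM scaling. Markers of excitatory neurons summed to 4070 to 4292 CPM in hypoxia and 3900 to 4531 CPM in control, with Camk2a the highest, and interneuron markers, with Gad1 the highest, to 383 to 420 CPM in hypoxia and 379 to 428 CPM in control. Astrocyte markers, led by Slc1a2, summed to 3300 to 3629 CPM in hypoxia and 3288 to 3619 CPM in control, so the cultures also held astrocyte RNA. Microglial markers, led by Aif1, summed to 18.1 to 21.3 CPM in hypoxia and 18.2 to 20.4 CPM in control, endothelial and mural markers, led by Kdr, to 43.5 to 53.4 CPM in hypoxia and 41.9 to 48.1 CPM in control, and fibroblast and meningeal markers, led by Col3a1, to 174 to 343 CPM in hypoxia and 202 to 280 CPM in control. Oligodendrocyte lineage markers summed to 112 to 144 CPM in hypoxia and 129 to 179 CPM in control, with 3 of 9 tested markers lower (Olig1, the highest, Olig2 and Mog). The call of Olig2 was lost without any one of 8 libraries (adjusted p of up to 0.113, without hypoxia 1). Markers of other cell types were called too: the excitatory Tbr1 and Neurod6, the interneuron marker Lhx6 and the mural marker Pdgfrb were higher, and the interneuron marker Dlx1 and the astrocyte marker Aqp4 were lower, with log2 fold changes of 0.18, 0.13, 0.14, 0.56, -0.28 and -0.20. The calls of Neurod6, Lhx6 and Aqp4 were lost without 1, 6 and 7 single libraries (adjusted p of up to 0.0538, 0.0798 and 0.0774). No microglial or fibroblast marker passed the threshold, and no listed marker of any of these cell types was at 0 in all libraries.

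Nampt, the rate-limiting salvage enzyme (ENSMUSG00000020572, chromosome 12, 32819545 to 32853349, GRCm38), had 109, 113, 117, 117 and 115 CPM in hypoxia 1 to 5, and from 78.9 to 97.4 CPM in control with a median of 87.0 CPM. Every hypoxia library lay above every control library, which held for 6.72% of all genes tested in the same direction. The highest control value came from control 1. The means were 114 ± 3.34 CPM in hypoxia and 87.3 ± 6.76 CPM in control, a log2 fold change of 0.39 ± 0.05 (SE, edgeR adjusted p = 3.44e-05), and by p-value Nampt ranked 249th of the 16235 genes. The 95% interval ran from 21.8% to 40.5% higher in hypoxia. Under 15 alternatives, including leaving out each library, the log2 fold change stayed between 0.36 and 0.43 and the call was kept. In the authors' deposited table Nampt has a log2 fold change of 0.39 and an adjusted p of 1.53e-14.

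Nmnat2 (ENSMUSG00000042751, chromosome 1, 152954993 to 153119261) was measured at 228, 225, 231, 249 and 239 CPM in hypoxia 1 to 5, and at 209 to 226 CPM in control, with a median of 216 CPM. The groups overlapped: hypoxia 2 at 225 CPM lay below controls 3 and 5 at 226 CPM. The means were 235 ± 9.67 CPM in hypoxia and 218 ± 7.14 CPM in control, a log2 fold change of 0.11 ± 0.04 (SE, edgeR adjusted p = 0.0430). The 95% interval ran from 2.08% to 13.4% higher in hypoxia. This small increase was not called without each of 6 single libraries. The call was lost at an adjusted p of 0.0872 without control 2, 0.0726 without control 4, 0.0602 without control 6, 0.0661 without hypoxia 3, 0.124 without hypoxia 4 and 0.0629 without hypoxia 5, and it was kept without each of the other 5. It was also lost with no filter on low counts (adjusted p = 0.0765) and with a block for replicate number (edgeR adjusted p = 0.0921). The DESeq2 Wald test kept it (adjusted p = 0.00792). In the authors' deposited table Nmnat2 has a log2 fold change of 0.12 and an adjusted p of 0.00757.

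Nmnat1 (ENSMUSG00000028992, chromosome 4, 149467572 to 149485202), the nuclear enzyme, stood at 7.15, 7.38, 6.93, 6.95 and 6.67 CPM in hypoxia 1 to 5, and at 4.84 to 6.81 CPM in control, with a median of 6.05 CPM. The groups overlapped through control 6 at 6.81 CPM, which lay above hypoxia 5, and the lowest value was that of control 1. The log2 fold change was 0.22 ± 0.08 (SE) and did not pass the threshold (edgeR adjusted p = 0.0620). Without control 6 the adjusted p was 0.0342, and with the size factors of DESeq2 in the same fit it was 0.0492. Nmnat1 was not called without any other single library, nor in the DESeq2 Wald test (adjusted p = 0.0512). A block for replicate number (edgeR adjusted p = 0.0515) and no filter on low counts (edgeR adjusted p = 0.106) gave no call either. The authors' deposited table lists Nmnat1 as higher, with a log2 fold change of 0.26 and an adjusted p of 0.0354. The 95% interval ran from 3.44% to 32.01% higher in hypoxia, before any adjustment for the number of genes tested.

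**Figure D2:**
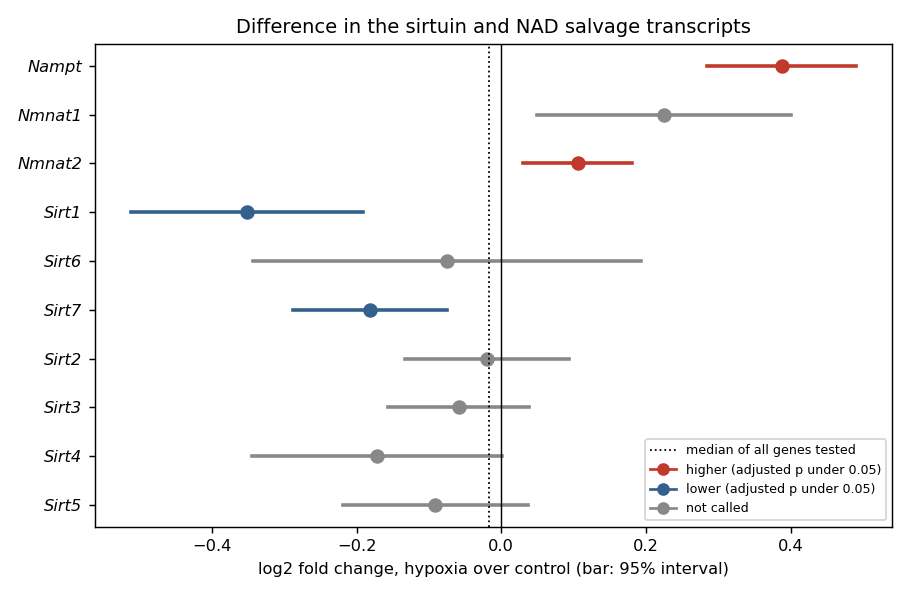
Log2 fold change of each transcript, hypoxia over control, with its 95% interval; red marks a call as higher, blue a call as lower and grey no call, and the dotted line is the median of all genes tested at -0.02. Nampt, at 0.39, and Sirt1, at -0.35, stand farthest from 0, and the interval of Sirt6 is the widest.

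Of the nuclear sirtuins, Sirt1 and Sirt7 fell. Sirt1 (ENSMUSG00000020063, chromosome 10, 63319005 to 63381704), which deacetylates p53, FoxO factors and other transcription regulators, had 12.7, 12.5, 14.3, 14.5 and 13.2 CPM in hypoxia 1 to 5, and from 15.2 to 20.4 CPM in control with a median of 16.9 CPM. No hypoxia library reached the lowest control, a separation in this direction shown by 7.26% of all genes tested. The means were 13.4 ± 0.926 CPM in hypoxia and 17.2 ± 1.92 CPM in control, a log2 fold change of -0.35 ± 0.08 (SE, edgeR adjusted p = 0.00318). The highest control was again control 1, at 20.4 CPM, and without it the log2 fold change was -0.29, still called. Across all 15 alternatives the adjusted p of Sirt1 ran from 0.000412 to 0.0154. The authors' deposited table gives a log2 fold change of -0.36 and an adjusted p of 1.96e-05.

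The DNA before the RefSeq start of the gene is shown for Nampt and Sirt1, which moved most and in opposite directions, since HIF factors and the clock factors bind related core motifs. Each line gives the 250 bases before the start, from RefSeq on GRCm38.p6, at chr12:32820085-32820334 on the plus strand for Nampt and at chr10:63339036-63339285 on the minus strand for Sirt1. Capitals mark ACGTG or its reverse complement CACGT, 1 form of the core of the HIF response element. They also mark CACGTG, the E-box of clock and MYC factors, which contains both. The GCGTG form of the HIF core was not searched for or marked.
Nampt: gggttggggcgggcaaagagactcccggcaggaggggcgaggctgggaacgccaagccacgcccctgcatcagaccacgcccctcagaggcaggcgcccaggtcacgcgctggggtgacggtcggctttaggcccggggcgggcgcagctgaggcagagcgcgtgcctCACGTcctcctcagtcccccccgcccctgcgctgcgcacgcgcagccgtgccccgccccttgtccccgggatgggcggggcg
Sirt1: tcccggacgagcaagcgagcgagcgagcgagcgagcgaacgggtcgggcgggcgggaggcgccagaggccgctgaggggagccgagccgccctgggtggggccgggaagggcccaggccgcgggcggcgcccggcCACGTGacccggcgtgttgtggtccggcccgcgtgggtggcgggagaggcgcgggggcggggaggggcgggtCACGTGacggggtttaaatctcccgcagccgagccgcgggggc
The Nampt window holds 1 match to ACGTG, on the reverse strand, 82 bases before the start, and no CACGTG. The Sirt1 window holds CACGTG at 2 places, 115 and 43 bases before the start. All 10 genes had an entry, with 13 windows in all because some have more than 1 start, and ACGTG was present on either strand in 5 of these windows, those of Sirt1, Sirt4, Sirt5, Sirt6 and Nampt. It was present in 16.6% of all 32851 windows of this length, and CACGTG in 6.02%. These are matches of letters and no measure of binding.

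Sirt7 (ENSMUSG00000025138, chromosome 11, 120618372 to 120625240), a deacetylase of histone H3 found in the nucleolus, had 17.99, 19.0, 17.97, 17.3 and 17.1 CPM in hypoxia 1 to 5, and from 19.0 to 21.5 CPM in control with a median of 20.1 CPM. The groups met at a single point, with hypoxia 2 and control 1 both at 19.0 CPM. The means were 17.9 ± 0.767 CPM in hypoxia and 20.2 ± 0.908 CPM in control, a log2 fold change of -0.18 ± 0.05 (SE, edgeR adjusted p = 0.0157). It was called without each single library in turn. The call was lost when no filter on low counts was applied (adjusted p = 0.0700) and with a block for replicate number (edgeR adjusted p = 0.0601). In the authors' deposited table its log2 fold change is -0.16 with an adjusted p of 0.0352.

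Sirt6 (ENSMUSG00000034748, chromosome 10, 81621785 to 81627797), which acts on chromatin and in DNA repair, varied most between libraries of one group. It had 12.4, 9.22, 8.94, 9.14 and 11.5 CPM in hypoxia 1 to 5, and from 7.29 to 13.1 CPM in control with a median of 10.5 CPM. Hypoxia 1 and hypoxia 5 stood well above the other hypoxia libraries, and control 1 was the lowest of all. The log2 fold change was -0.07 (edgeR adjusted p = 0.726), and the 95% interval of the percent change, from -21.2% to 14.4%, covers changes as large as that of Sirt7. The spread of Sirt6, as SD over mean, was 15.7% in hypoxia and 19.9% in control, against 2.93% in hypoxia and 7.74% in control for Nampt.

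Sirt2, Sirt3, Sirt4 and Sirt5 did not pass the threshold. Sirt2 (ENSMUSG00000015149, chromosome 7, 28766735 to 28788661), a cytosolic tubulin deacetylase that is abundant in oligodendrocytes, stood at 68.9, 64.1, 70.5, 62.8 and 66.9 CPM in hypoxia 1 to 5, and at 59.7 to 74.8 CPM in control with a median of 68.1 CPM. The hypoxia values all lay within the control range, and the 95% interval of the percent change ran from -8.82% to 6.74% (edgeR adjusted p = 0.840). The log2 fold change of -0.02 changed sign without control 4, control 5, hypoxia 2 or hypoxia 4. The oligodendrocyte lineage markers that were lower, Olig1, Olig2 and Mog, had log2 fold changes of -0.43, -0.45 and -0.49, and their part in any sirtuin value was not tested.

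Among the mitochondrial sirtuins, Sirt3 (ENSMUSG00000025486, chromosome 7, 140863666 to 140882309), the main deacetylase of the matrix, had 28.1, 27.2, 27.2, 28.5 and 30.6 CPM in hypoxia 1 to 5, and 27.3 to 30.6 CPM in control with a median of 29.6 CPM. Its 95% interval of the percent change ran from -10.3% to 2.73% (log2 fold change -0.06, edgeR adjusted p = 0.401). Sirt4 (ENSMUSG00000029524, chromosome 5, 115478010 to 115484725), which restrains glutamate dehydrogenase, had 8.03, 7.12, 7.33, 6.11 and 6.07 CPM in hypoxia 1 to 5, and 7.23 to 8.11 CPM in control with a median of 7.87 CPM. Hypoxia 4 and hypoxia 5 held the lowest Sirt4 values, and hypoxia 1 and hypoxia 3 lay among the controls. The log2 fold change of Sirt4 was -0.17 ± 0.08 (SE, edgeR adjusted p = 0.146), close to that of Sirt7 in size and with a larger error. Sirt5 (ENSMUSG00000054021, chromosome 13, 43365496 to 43395203), a desuccinylase, had 9.17, 8.96, 9.91, 9.10 and 9.51 CPM in hypoxia 1 to 5, and 9.55 to 10.7 CPM in control with a median of 9.74 CPM, a log2 fold change of -0.09 (edgeR adjusted p = 0.309). All 7 sirtuins had a log2 fold change below 0, as did 54.1% of all genes tested, but only Sirt1 and Sirt7 were called, and the sign of Sirt2 changed without single libraries.

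**Figure D3:**
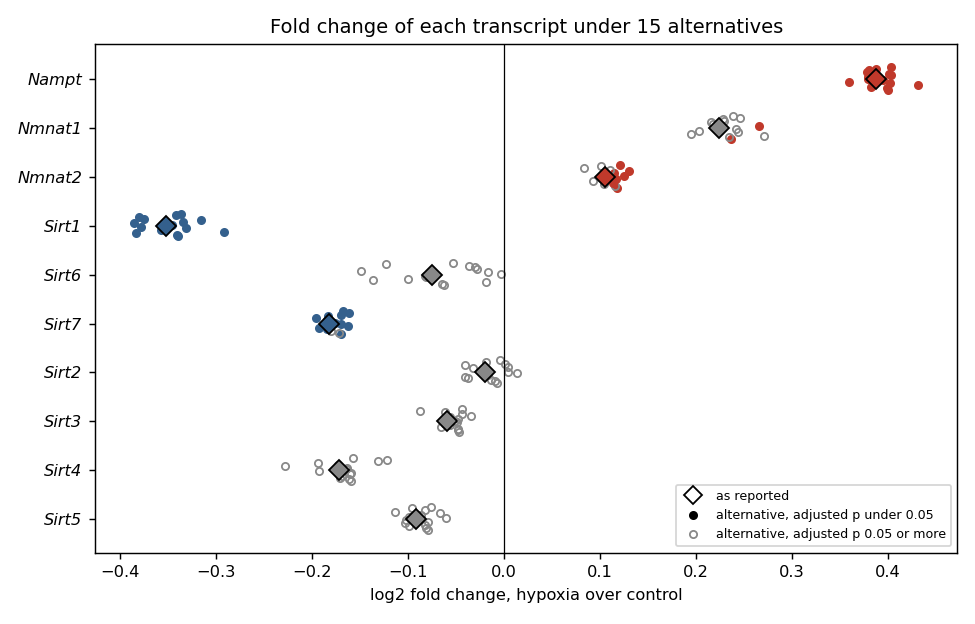
Log2 fold change of each transcript, hypoxia over control, as reported (diamond) and under 15 alternatives (circles, filled where the adjusted p was under 0.05, red where higher and blue where lower). Nampt and Sirt1 are filled throughout, Nmnat2 is filled in part, and Sirt2 lies on both sides of 0.

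To compare levels between genes, each level in CPM was divided by the length of each gene's merged exons in GENCODE M21, which covers exons that neurons may not use. On this scale, Nmnat2 was the most abundant transcript in both groups, at 40.6 ± 1.67 CPM per kb in hypoxia and 37.7 ± 1.23 in control. Nampt followed at 22.6 ± 0.662 CPM per kb in hypoxia and 17.3 ± 1.34 in control, then Sirt2 at 13.2 ± 0.635 in hypoxia and 13.4 ± 1.09 in control, and then Sirt3 at 4.74 ± 0.239 in hypoxia and 4.93 ± 0.203 in control. Each of these 4 was above the next in rank in every library of its group. Below them, Sirt6, Sirt7, Sirt4 and Sirt1 lay between 2.52 and 3.68 CPM per kb in hypoxia and between 3.23 and 3.93 in control, and their library ranges overlapped in part. In hypoxia, Sirt1 lay below Sirt6 and Sirt7 in every library, and the other pairs among these 4 overlapped. In control, Sirt7 lay above Sirt4 in every library, and the other pairs overlapped. The control range of Sirt3, from 4.56 CPM per kb, also overlapped that of Sirt6, which reached 4.69. Sirt1 overlapped Nmnat1 in hypoxia (2.52 ± 0.174 and 2.31 ± 0.0877 CPM per kb) but stood above it in every control library (3.23 ± 0.360 and 1.96 ± 0.232). Sirt5 was lowest, at 1.53 ± 0.0629 CPM per kb in hypoxia and 1.63 ± 0.0769 in control, and overlapped Nmnat1 in control only.

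**Figure D4:**
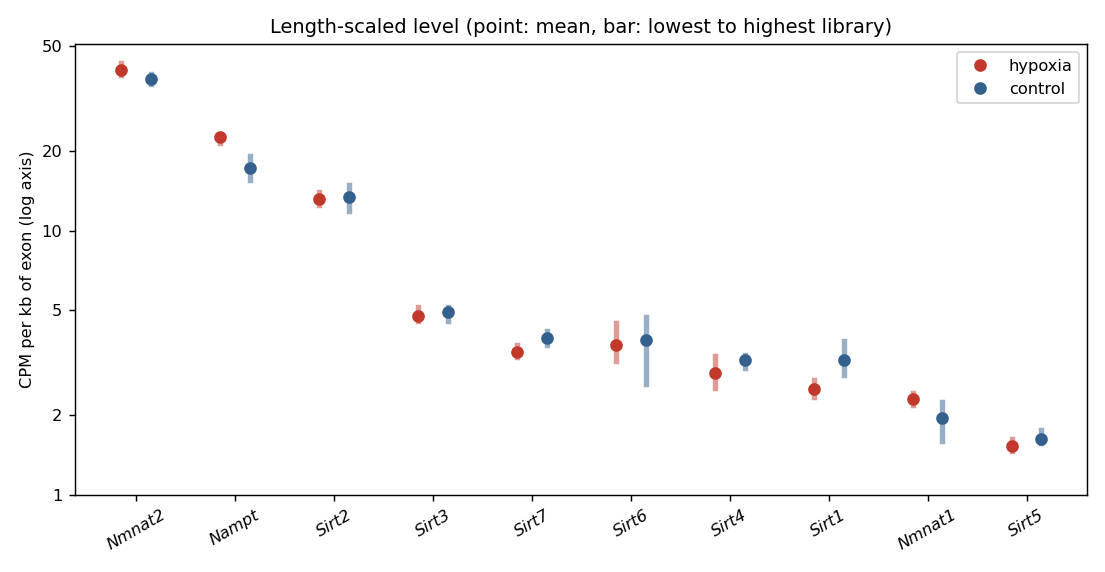
Length-scaled level of each transcript, in CPM per kb of merged exon on a log axis, hypoxia (red) left of control (blue); points are means and bars run from the lowest to the highest library. Nmnat2, Nampt, Sirt2 and Sirt3 are separated from one another, and Sirt3 overlaps Sirt6 in control. The ranges of Sirt6, Sirt7, Sirt4 and Sirt1 overlap in part, except Sirt1 against Sirt6 and Sirt7 in hypoxia and Sirt7 against Sirt4 in control.

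By GENCODE gene bounds, 5 of the 10 genes start within 1000 bases of a protein-coding gene on the other strand, and the partners were read beside them. Sirt3 starts 341 bases from Psmd13, a proteasome subunit gene with a log2 fold change of 0.07 (edgeR adjusted p = 0.214). Sirt1 starts 739 bases from Dnajc12, a cochaperone gene at -0.06 (edgeR adjusted p = 0.752), but only by its GENCODE bound at 63381704. The RefSeq start used for the promoter window, next to 63339036, lies farther than 1000 bases from Dnajc12, so the count of 5 depends on the bounds used. Nmnat1 starts 27 bases from Lzic, which had a log2 fold change of 0.03 (edgeR adjusted p = 0.776), and Sirt2 starts 777 bases from Nfkbib, an inhibitor of NF-kappa-B, at 0.09 (edgeR adjusted p = 0.502). Ankrd24, 743 bases from Sirt6, was the one partner that was called, with a log2 fold change of -0.29 (edgeR adjusted p = 0.0271), and that call was lost without any one of 6 libraries: control 2, 3 or 6, or hypoxia 2, 3 or 4 (adjusted p of up to 0.0761, without hypoxia 4). The kit did not mark strand, and Sirt3 shares 342 exon bases with Psmd13 and 418 with Ric8a, and 42 exon bases of Sirt2 are shared with Nfkbib. Sirt7 shares 124 exon bases with Mafg, a transcription factor gene at 124 ± 2.93 CPM in hypoxia and 121 ± 8.10 CPM in control. How reads in such stretches were assigned is not given in the sources used here.

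For each called gene, the genes most alike in profile were taken as those with the smallest root-mean-square difference in log2 CPM over the 11 libraries, after each gene's mean was removed, among 10659 genes of at least 5 CPM on average. Nampt was closest to Gna13, a G protein subunit gene, at a difference of 0.0526 log2 units, then to the lipoprotein receptor gene Vldlr at 0.0634 and the thiamine transporter gene Slc19a2 at 0.0649, where the median gene stood 0.232 from Nampt. Sirt1 was closest to the splicing factor gene Srsf10 at 0.0644, then Zkscan8 at 0.0649 and the small GTPase gene Rap2b at 0.0726, with a median of 0.238. Sirt7 was closest to Tsfm, a mitochondrial translation factor gene, at 0.0397, then Dnajc16 at 0.0437 and Nrbp2 at 0.0460, with a median of 0.147. Nmnat2 was closest to Ap2m1, a clathrin adaptor gene, at 0.0219, then the proteasome gene Psmb4 at 0.0251 and the RNA ligase gene Rtcb at 0.0272. The median gene stood 0.121 from Nmnat2, whose own root-mean-square distance from its mean was 0.0708, against 0.209 for Nampt. These are descriptions, and a difference between the groups that 2 genes share lowers this distance.

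Few genes of the other routes of NAD synthesis reached the filter on low counts. Of 16 listed, 6 were tested, and 1 of these was lower and none higher (median log2 fold change -0.29). For this list and each list below, the shares over all genes tested were 10.1% higher and 12.8% lower. The lower one was Nadsyn1, the last enzyme of the route from nicotinic acid, at 2.70 ± 0.232 CPM in hypoxia and 3.46 ± 0.370 CPM in control (edgeR adjusted p = 0.0221), a call lost without control 3, hypoxia 1 or hypoxia 4 (adjusted p of up to 0.0554, without hypoxia 1). Naprt, which opens that route, had a log2 fold change of -0.27 (edgeR adjusted p = 0.0811). The nicotinamide riboside kinase Nmrk1 averaged 6.45 ± 0.556 CPM in hypoxia and 6.996 ± 0.649 CPM in control. Nmnat3, the mitochondrial Nmnat enzyme, averaged 0.426 ± 0.103 CPM in hypoxia and 0.468 ± 0.0361 CPM in control. Of the tryptophan route, Tdo2, at 1.07 ± 0.391 CPM in hypoxia and 1.40 ± 0.191 CPM in control, and Afmid, at 0.706 ± 0.187 CPM in hypoxia and 0.879 ± 0.177 CPM in control, were tested and not called (edgeR adjusted p = 0.268 and 0.322). Ido1, Ido2, Kmo, Kynu, Haao, Acmsd and Qprt were not tested, with Ido2 the highest of them in hypoxia at 0.330 CPM, against 0.241 CPM in control, and Pnp was matched to no ID.

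Of 10 genes of NAD phosphorylation, transport, repair and nicotinamide removal, 1 was higher and 2 were lower (median log2 fold change 0.02). The NAD kinases differed in direction. Nadk, the cytosolic enzyme, fell to 62.7 ± 1.22 CPM in hypoxia, against 69.1 ± 1.47 CPM in control, with no overlap (edgeR adjusted p = 0.00562), a call lost when no filter on low counts was applied (adjusted p = 0.0563). Nadk2, the mitochondrial one, rose to 44.8 ± 4.16 CPM in hypoxia, against 39.1 ± 2.84 CPM in control (edgeR adjusted p = 0.0316), a call lost without control 3, control 4, hypoxia 3, hypoxia 4 or hypoxia 5 (adjusted p of up to 0.0768, without hypoxia 4). The oxidase Aox1, which acts on methylated nicotinamide, was also lower, with a log2 fold change of -0.23 (edgeR adjusted p = 0.0419), and this call was lost without any one of 8 libraries (adjusted p of up to 0.1, without hypoxia 3), as it was with DESeq2 size factors, the DESeq2 Wald test or no filter. The mitochondrial NAD carrier Slc25a51 had a log2 fold change of 0.04.

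Of 17 other NAD-consuming enzymes tested, 3 were higher and 2 lower (median log2 fold change -0.03), where 22.9% of all genes tested were called in either direction. Tiparp, a mono-ADP-ribosyltransferase, rose to 40.1 ± 1.39 CPM in hypoxia, against 26.8 ± 2.13 CPM in control, a log2 fold change of 0.59 (edgeR adjusted p = 1.32e-06). Parp6 rose to 235 ± 5.79 CPM in hypoxia, against 214 ± 8.73 CPM in control, and the tankyrase Tnks was higher by 0.10 on the log2 scale, a call lost without control 3, control 4, hypoxia 2, hypoxia 3 or hypoxia 4 (adjusted p of up to 0.0781, without control 4). Cd38, an NAD glycohydrolase of the cell surface, fell to 1.32 ± 0.186 CPM in hypoxia, against 2.01 ± 0.306 CPM in control, a log2 fold change of -0.59 (edgeR adjusted p = 0.00688). Parp16 was lower, with a log2 fold change of -0.30 (edgeR adjusted p = 0.0232), a call lost without hypoxia 3 or hypoxia 4 (adjusted p of up to 0.0652, without hypoxia 4). Parp1, the main poly-ADP-ribose polymerase, had a log2 fold change of 0.06 (edgeR adjusted p = 0.300), and Sarm1, the axonal NADase that Nmnat2 holds in check, of -0.06 at 78.9 ± 3.60 CPM in hypoxia and 81.8 ± 3.23 CPM in control (edgeR adjusted p = 0.362).

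Of 7 genes linked to Nmnat2 in axon survival or injury, 1 was higher and none lower (median log2 fold change 0.0033). They are called axon survival partners of Nmnat2 below, although the list includes genes of the ligase that removes Nmnat2 protein. Map3k13, a kinase of the axon injury pathway, rose to 44.3 ± 3.67 CPM in hypoxia, against 30.4 ± 1.72 CPM in control, a log2 fold change of 0.54 (edgeR adjusted p = 7.21e-06). Its relative Map3k12 had a log2 fold change of -0.01. Mycbp2, Fbxo45 and Skp1a, which form the ubiquitin ligase that removes Nmnat2 protein, did not pass the threshold: Mycbp2 had a log2 fold change of 0.11 (edgeR adjusted p = 0.0636), and the adjusted p was 0.980 for Fbxo45 and 0.973 for Skp1a. Mycbp2 was called as higher without control 1, control 2 or hypoxia 5 (adjusted p down to 0.0143), with DESeq2 size factors and in the DESeq2 Wald test.

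Of 11 regulators of Sirt1, 1 was higher and 1 lower (median log2 fold change -0.05). Prkaa1, a catalytic subunit of the kinase AMPK, fell to 37.2 ± 2.16 CPM in hypoxia, against 47.4 ± 1.93 CPM in control, with no overlap (log2 fold change -0.35, edgeR adjusted p = 4.96e-05), while the other catalytic subunit, Prkaa2, had a log2 fold change of 0.03 (edgeR adjusted p = 0.741). The deubiquitinase Usp22, which stabilises Sirt1 protein, rose to 1445 ± 48.0 CPM in hypoxia, against 1324 ± 55.5 CPM in control (edgeR adjusted p = 0.0187). Ccar2, which binds and inhibits Sirt1, had a log2 fold change of -0.07.

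Of 15 genes whose proteins are substrates of nuclear sirtuins, 5 were higher and 1 lower (median log2 fold change -0.02). Per2, a clock repressor, rose to 28.0 ± 2.82 CPM in hypoxia, against 18.2 ± 0.528 CPM in control (edgeR adjusted p = 2.95e-06). The FoxO genes differed in direction: Foxo3 rose to 69.4 ± 3.19 CPM in hypoxia, against 47.7 ± 4.52 CPM in control (edgeR adjusted p = 8.19e-06), and Foxo1 fell to 55.7 ± 1.42 CPM in hypoxia, against 61.3 ± 1.85 CPM in control (edgeR adjusted p = 0.0105), the Foxo1 call being lost with no filter on low counts (adjusted p = 0.0760). The acetyltransferase Ep300 was higher by 0.20 on the log2 scale, Arntl (the clock activator Bmal1) by 0.18 and Ppargc1a, the mitochondrial biogenesis coactivator, by 0.12. The call of Arntl was lost with a block for replicate number (edgeR adjusted p = 0.057). The call of Ppargc1a was lost without control 3, control 4, hypoxia 3, hypoxia 4 or hypoxia 5 (adjusted p of up to 0.0898, without hypoxia 4). Of 14 substrates of mitochondrial sirtuins, 1 was lower and none higher (median log2 fold change -0.02). The lower one was Acss1, the mitochondrial acetyl-CoA synthetase that Sirt3 activates, at 12.8 ± 1.24 CPM in hypoxia and 16.2 ± 1.18 CPM in control (edgeR adjusted p = 0.00253). Sod2, another Sirt3 target, had a log2 fold change of -0.02. Members of each list are a choice of known genes and not a complete set, and none of these shares was tested against the 22.9% called among all genes.

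**Figure D5:**
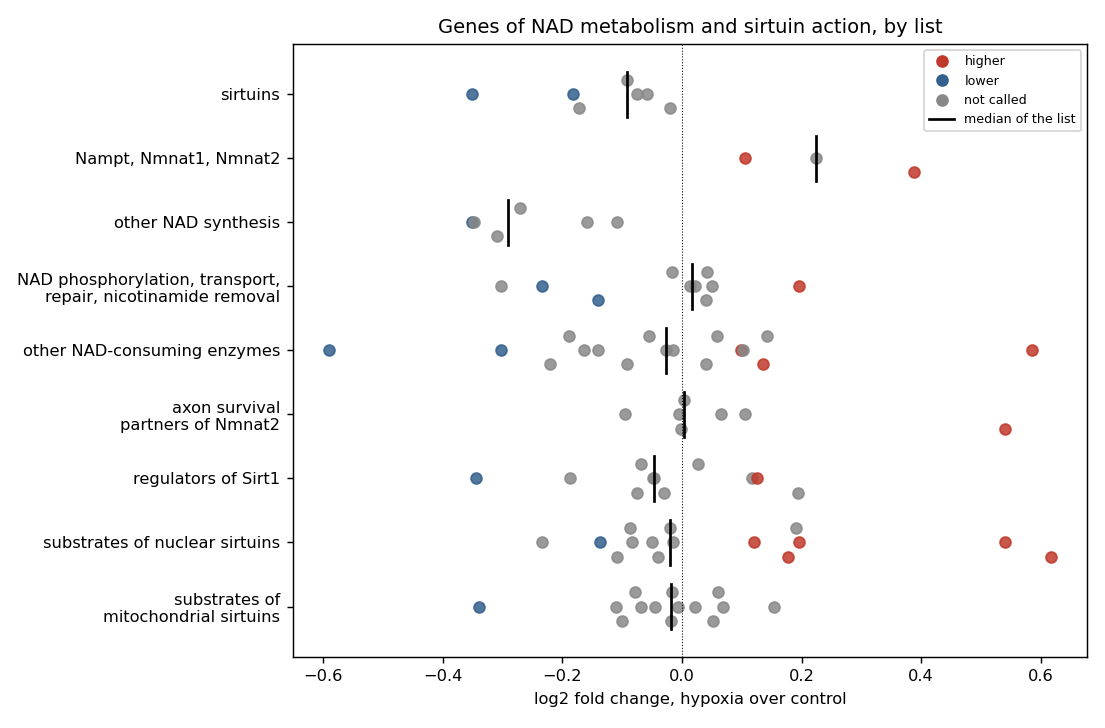
Log2 fold change, hypoxia over control, of each tested gene in the sirtuin and salvage groups and in the other 7 lists; red marks a call as higher, blue as lower and grey no call, and the black bar is the median of the list. Tiparp, Cd38, Map3k13, Per2 and Foxo3 lie farthest from 0, and no uncalled gene lies as far out as any of them.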

How the data were processed

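Per the labels, RNA was taken up in Trizol, made into TruSeq v2 libraries, an unstranded protocol, and sequenced as single-end reads. The authors deposited raw read counts per Ensembl gene ID, 1 table for each of 11 libraries, with no rows outside genes. The submitters' processing notes name FastQC 0.11.5, STAR 2.5.2b, Subread 1.5.1 with featureCounts, DESeq2 and build mm10. The sources used here do not give the annotation release, the strand setting or how multi-mapped reads were treated. The authors also deposited tables of 2099 higher and 1693 lower genes with log2 fold changes and adjusted p-values, and with a normalized signal per library that equals the deposited count over 1 factor per library.

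Groups and replicate numbers came from the sample titles. Genes were filtered with filterByExpr by group, scaled with TMM and tested with edgeR 4.0.16 in R 4.3.3 (glmQLFit with robust FALSE, glmQLFTest, no covariate, two-sided). P-values were adjusted over all 16235 genes by Benjamini-Hochberg, with a threshold of 0.05. The SE is the size of the log2 fold change over the square root of F, and 95% intervals use the t distribution with the fit's degrees of freedom. The steps were tested on simulated data. Symbols, coordinates and exon lengths came from GENCODE M21 (GRCm38, the assembly of mm10). Alternatives were DESeq2 size factors, no filter, the DESeq2 1.42.0 Wald test, a replicate block and leaving out each library.

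The 10 genes, the lists and the tests were chosen with earlier results of these data known. The text names all 10 genes, up to 4 called genes of each other list by p-value, the 3 closest profiles of each called gene, leaving out predicted genes, and the most abundant marker of each cell type; further list members were chosen after their values were seen.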

Additional observations from a re-analysis of the deposited data

How the results depend on the processing

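Sirt1, Nampt, Sirt3, Sirt4, Sirt5 and Sirt6 kept their direction and their side of the threshold under all 15 alternatives, and Sirt7 kept both without each library. Without each library in turn, log2 fold changes ran from -0.38 to -0.29 for Sirt1, 0.36 to 0.43 for Nampt, 0.083 to 0.13 for Nmnat2, 0.20 to 0.27 for Nmnat1 and -0.040 to 0.014 for Sirt2. The sign of Sirt2 changed without control 4 (0.0136), control 5 (0.00456), hypoxia 2 (0.00471) or hypoxia 4 (0.00118). With no filter on low counts, Sirt7 (-0.17, adjusted p = 0.0700) and Nmnat2 (0.12, adjusted p = 0.0765) lost their calls, where 32988 genes were tested in place of 16235. With DESeq2 size factors Nmnat1 was called (0.24, adjusted p = 0.0492), and the cause was not tested.

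With the replicate block, Sirt7 (-0.18, adjusted p = 0.0601) and Nmnat2 (0.10, adjusted p = 0.0921) were not called, and calls over all genes numbered 2946, against 3722 without it. Same-numbered libraries had correlations of -0.103, 0.141, -0.0574, -0.0636 and 0.306 between their deviations. Only hypoxia 2 and hypoxia 5 correlated best with the control of their own number. The labels do not say whether same-numbered libraries share an isolation, and these correlations cannot decide it. Under the block the other NAD synthesis list had 0 lower and the nuclear substrates 3 higher.

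With no filter, there were 0 lower in other NAD synthesis, 0 lower in NAD phosphorylation, transport, repair and nicotinamide removal, 1 lower in other NAD-consuming enzymes and 0 lower in nuclear substrates. With DESeq2 size factors, NAD phosphorylation and the rest of its list had 1 lower and axon survival partners of Nmnat2 2 higher. In the DESeq2 Wald test, these were 1 and 3, and the mitochondrial substrates had 1 higher. Without each library in turn, other NAD synthesis had 0 to 1 higher and 0 to 1 lower; the NAD phosphorylation list 0 to 1 higher and 1 to 2 lower; other NAD-consuming enzymes 2 to 3 higher and 1 to 2 lower; axon survival partners of Nmnat2 1 to 2 higher and 0 to 1 lower; regulators of Sirt1 1 higher and 1 lower throughout; nuclear substrates 4 to 5 higher and 1 to 2 lower; and mitochondrial substrates 0 to 2 higher and 1 lower. Nmnat1 had as few as 81 counts in a library, the lowest of the 10 genes.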
